A study of Homo sapiens with 36 samples.

Results

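Chromosome 19 carries the densest arrays of zinc finger genes in the human genome, and this account follows 246 of them through the loss of the DNA methylation maintenance proteins UHRF1 and DNMT1 in HCT116, a colorectal cancer cell line. The members are the protein-coding genes of chromosome 19 in GENCODE whose symbol is ZNF, a number and at most 1 further letter, matched to the deposited count tables by Ensembl gene identifier. They are 246 of the 19942 protein-coding genes in those tables, and the rule used the name and the position alone and no measured value. Chromosome 19 also holds 1226 other protein-coding genes, and 262 genes with the same form of name lie on other chromosomes. A translated coding sequence with a stretch like a KRAB box was found for 213 members, while 33 members had none, so the name does not by itself make a gene a KRAB gene. The number of C2H2 fingers per protein ran from 1 to 36 with a median of 12.

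Polyadenylated RNA was sequenced from 36 libraries in 12 groups of 3, which are 4 lines on 3 days. WT cells carried OsTIR1, the plant F-box protein that degrades auxin-tagged proteins, under a doxycycline-inducible promoter, and the other lines carried in addition an auxin-inducible degron on UHRF1 (UHRF1-AID), on DNMT1 (DNMT1-AID) or on both proteins (UHRF1-AID/DNMT1-AID, the double line). All lines, WT included, received 2 µg/mL doxycycline with 20 µM auxinole, an inhibitor of OsTIR1, for 1 day and then 2 µg/mL doxycycline with 500 µM auxin (Dox/Auxin), with the medium renewed every 2 days, so a difference from WT is a difference beyond the treatment itself. Libraries of day 2, day 6 and day 8 of Dox/Auxin were used, and days 0 and 4 were not analysed here. At a single gene, a standing difference between a line and WT therefore cannot be told apart from an effect of the depletion. The study reports closely similar RNA profiles of the untreated lines. The study describes the 3 libraries of a line and day as biological replicates and states that degron lines were generally represented by 3 clones. The labels give a replicate number and no clone, so the p-values below measure the spread between these libraries. Total counts per library ran from 21074536 to 37175136.

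KRAB zinc finger proteins bind DNA through an array of C2H2 fingers and, through the KRAB box, recruit TRIM28 (KAP1), which brings in the histone methyltransferase SETDB1 and HP1 proteins and so lays down H3K9me3 heterochromatin. Many of them recognise retroelements, and the genes themselves arose by repeated local duplication, which is why neighbours on chromosome 19 resemble each other. UHRF1 reads hemimethylated DNA after replication and directs DNMT1 to it, so loss of either protein lets CpG methylation fade as cells divide. Some zinc finger genes of chromosome 19 are known for methylated, silent promoters in tumours.

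The promoters of 5 members, picked after their values were seen, are shown. ZNF714 and ZNF100 were lower and ZNF772 and ZNF419 higher than WT in all 3 degron lines on day 8, and ZNF541 had almost no reads in WT. Each run is the 250 bases before the gene start in RefSeq (GRCh38.p14), written 5′ to 3′ on the strand of the gene in lower case, with every CG dinucleotide, the site of maintenance methylation, in capitals. ZNF714 lies on the plus strand at chr19:21081953-21082202, ZNF100 on the minus strand at chr19:21767580-21767829, ZNF772 on the minus strand at chr19:57477567-57477816, ZNF419 on the plus strand at chr19:57487500-57487749 and ZNF541 on the minus strand at chr19:47573149-47573398.
ZNF714: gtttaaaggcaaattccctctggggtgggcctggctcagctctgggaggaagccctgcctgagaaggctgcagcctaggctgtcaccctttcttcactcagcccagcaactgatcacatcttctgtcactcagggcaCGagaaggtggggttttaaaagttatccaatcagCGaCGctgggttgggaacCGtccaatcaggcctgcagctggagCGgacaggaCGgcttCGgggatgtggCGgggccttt
ZNF100: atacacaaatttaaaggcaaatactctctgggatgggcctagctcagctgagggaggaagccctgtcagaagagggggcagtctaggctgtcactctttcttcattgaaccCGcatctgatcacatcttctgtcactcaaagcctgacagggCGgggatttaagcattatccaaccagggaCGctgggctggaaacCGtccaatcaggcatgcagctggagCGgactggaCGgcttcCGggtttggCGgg
ZNF772: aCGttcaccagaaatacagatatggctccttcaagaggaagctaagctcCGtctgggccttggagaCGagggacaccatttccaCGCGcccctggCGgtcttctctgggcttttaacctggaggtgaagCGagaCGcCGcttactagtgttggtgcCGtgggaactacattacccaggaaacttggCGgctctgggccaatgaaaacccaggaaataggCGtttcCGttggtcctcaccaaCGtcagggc
ZNF419: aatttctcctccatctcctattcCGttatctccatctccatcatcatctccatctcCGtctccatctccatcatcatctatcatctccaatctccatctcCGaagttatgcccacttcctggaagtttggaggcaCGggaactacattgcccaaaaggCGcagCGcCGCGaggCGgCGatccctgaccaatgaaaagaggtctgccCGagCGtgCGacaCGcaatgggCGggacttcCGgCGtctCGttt
ZNF541: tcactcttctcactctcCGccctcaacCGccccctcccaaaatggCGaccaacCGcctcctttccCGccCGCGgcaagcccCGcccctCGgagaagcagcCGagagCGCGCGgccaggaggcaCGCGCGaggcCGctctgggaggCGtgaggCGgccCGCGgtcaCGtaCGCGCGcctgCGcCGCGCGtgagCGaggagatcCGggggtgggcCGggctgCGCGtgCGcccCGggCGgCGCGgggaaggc
The promoters of ZNF714 and ZNF100 held 8 CG each, that of ZNF772 held 14, that of ZNF419 held 18 and that of ZNF541 held 39. That of ZNF507, not shown but also lower than WT in all 3 degron lines on day 8, held 23. A link between CG count and direction was not tested. CG occurred at least once in 93.9% of the 35116 RefSeq promoters of this length. Promoters were available for 216 members, whose median was 16 CG against 11 over all promoters, and 63.9% of the members' promoters had 14 or more CG against 44.8% of all. At most 8 CG were found in 12.5% of the members' promoters and in 45.9% of all. CG counts are a property of the sequence, and methylation itself was not measured in these libraries.

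The degron acts on protein, so mRNA does not check the depletion, but both targeted mRNAs were looked at first. DNMT1 mRNA was lower than in WT on all 3 days in DNMT1-AID and in the double line, by 1.38 to 2.18 on the log2 scale, and it also fell by 0.71 in UHRF1-AID on day 2 (edgeR's quasi-likelihood test with Benjamini-Hochberg adjustment, adjusted p = 0.0148). UHRF1 mRNA passed the test against WT only in the double line on day 8, at a log2 fold change of -1.29 ± 0.25 (SE, edgeR adjusted p = 7.29e-05). The colorectal epithelial markers EPCAM, CDH1, KRT8, KRT18, KRT19, CDX2 and VIL1 were detected in all 36 libraries with a summed level of 3392 to 10766 (counts scaled to the TMM-adjusted library size, CPM). Markers of other cell types summed to 2.59 to 84.8 CPM, nearly all of it COL1A1, and on day 8 that sum was 36.4 to 48.9 CPM in the double line against 20.3 to 23.8 CPM in WT. The part of this in the results below was not tested. In bulk RNA, fewer cells with a transcript and less transcript per cell cannot be told apart. The libraries of UHRF1-AID replicates 2 and 3 and of DNMT1-AID replicate 2 stand apart at some members, of which a part is described at the end.

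Most members were weakly expressed. In WT on day 2 the median member stood at 2.07 CPM against 9.61 CPM for all protein-coding genes, 32 members were at 10 CPM or more, 110 between 1 and 10 CPM and 104 below 1 CPM. The count filter (edgeR's filterByExpr with a minimum count of 10) kept 167 members, or 67.9%, against 77.3% of all protein-coding genes. None of the 79 members left out reached 1 CPM in any library, the highest value being 0.966 CPM, and 12 had no read in any of the 36 libraries, which include ZNF382 and ZNF582. A member kept only because 1 line expressed it had to differ between lines, so the counts below speak of the 167 tested members and not of all 246. The sum over the members ran from 1086 to 1887 CPM and was highest in the double line on day 8, at 1825, 1887 and 1778 CPM, against 1448, 1465 and 1483 CPM in WT on that day.

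Per kilobase of exon, the most abundant members in WT on day 2 were ZNF428 at 22.3 CPM per kb, ZNF581 at 20.4, ZNF575 at 15.5, ZNF524 at 12.2 and ZNF580 at 11.0. All 5 lacked a KRAB-box-like stretch, and ZNF580 and ZNF581 share exons on the same strand, so reads of this pair could be split by the counting. Members with a KRAB-box-like stretch had AT-rich transcripts, with a median GC content of 42.1% over the 140 tested, whereas the 27 tested members without it had a median of 63.5%. The corresponding medians were 50.0% for all genes tested and 61.0% for the other tested genes of chromosome 19. Counts of members that changed with per-library offsets for GC content and transcript length are given below with and without them. Counts by cluster and by promoter CG count are given without them only.

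The comparison of the double line with WT on day 8 asks how the members stand after the longest combined depletion, and among the 9 comparisons with WT of the same day it had the most calls. Of 167 tested members 51 were higher in the double line and 25 lower at an adjusted p under 0.05, or 30.5% and 14.97%. Over all 15415 genes tested the background was 35.7% higher and 32.8% lower. The median log2 fold change was 0.17 over the members and 0.03 over all genes. With GC and length offsets, which moved the median of all genes by -0.27, 55 members were higher (32.9%) and 35 lower (21%), beside backgrounds of 22.6% and 48% under the same offsets. The share of higher members was thus below the background without the offsets and above it with them, and the share of lower members was below it under both. With scaling by library size alone, which moved the median of all genes by -0.19, the split was 39 and 36 beside backgrounds of 27.6% and 42.1%. The zinc finger genes of other chromosomes were 48 higher and 67 lower of 228, with a median of -0.06, and the other genes of chromosome 19 were 588 higher and 103 lower of 1007, with a median of 0.47. With GC and length offsets the former were 37 higher and 79 lower, with a median of -0.15. The latter were then 220 higher and 527 lower, with a median of -0.30. These shares were not tested against each other. Tested members also had fewer reads than tested genes as a whole, with medians of 4.08 and 20.9 CPM in WT on day 2, and the part of this in their lower share of calls was not tested.

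**Figure D1:**
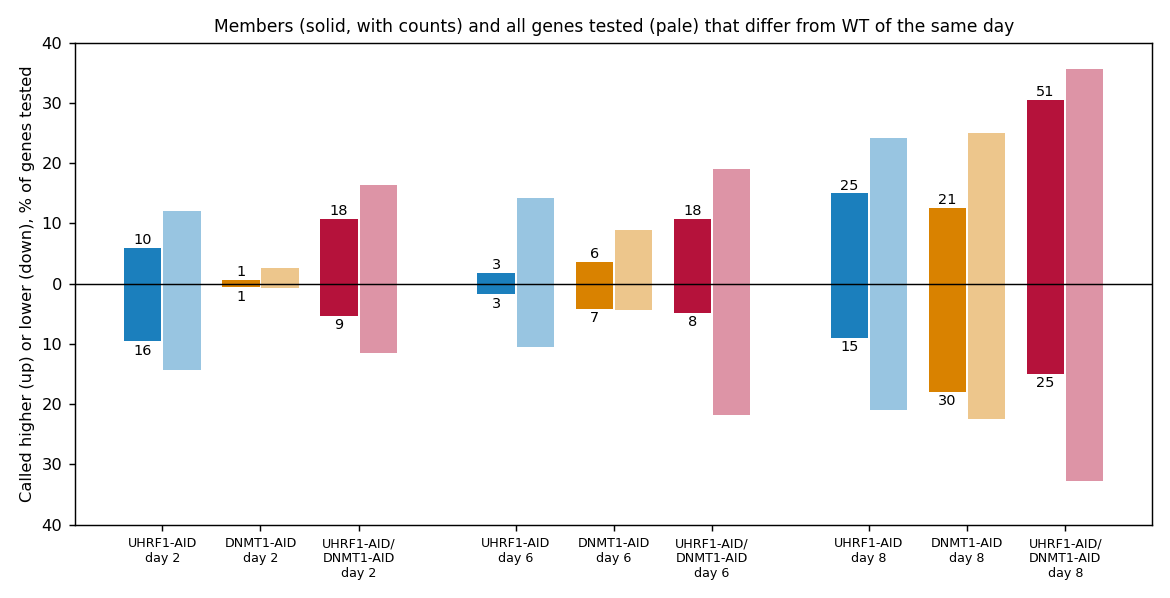
Bars give the share (percent of genes tested) called higher (up) or lower (down) than WT of the same day by edgeR at an adjusted p under 0.05, for each degron line on days 2, 6 and 8; solid bars are the 167 tested members, with their counts, and pale bars all 15415 genes tested. The double line on day 8 had 51 members higher and 25 lower. In all 9 comparisons the solid bar is shorter than the pale one both for higher and for lower members.

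The largest differences came from members that were close to silent in WT. ZNF772 stood at 0.0458, 0.360 and 0 CPM in the WT libraries of day 8 and at 2.04, 1.39 and 2.66 CPM in the double line. All libraries of the double line were above all WT libraries, and the log2 fold change was 3.97 ± 0.69 (SE). These values are a description, since ZNF772 passed the count filter through degron libraries. ZNF419, the gene of a minor histocompatibility antigen, is the next member along the chromosome, on the opposite strand, and stood at 0.503, 0.180 and 0.304 CPM in WT against 2.85, 1.76 and 1.13 CPM. The groups did not overlap, with a log2 fold change of 2.52 ± 0.53 (SE, edgeR adjusted p = 9.93e-05). ZNF772 and ZNF419 each share exons on the same strand with an unnamed gene, so part of their reads could be split by the counting. ZNF350, also known as ZBRK1, a partner of BRCA1 in repression, stood at 0.549, 0.450 and 0.439 CPM in WT and at 1.73, 1.47 and 2.94 CPM in the double line, again without overlap (log2 fold change 2.10 ± 0.53, SE, edgeR adjusted p = 0.000796).

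ZNF223 had 1 read in the 3 WT libraries of day 8 together and 73 in those of the double line, a ratio of 78.8 with a 95% counting interval of 13.7 to 3155. The libraries of the double line spread widely, at 1.73, 1.22 and 0.403 CPM, and 43.2% of the 75-base stretches of ZNF223 also occur in another gene, so its count is uncertain. ZNF541, a germ cell factor of meiosis, had 2 reads in WT and 58 in the double line (ratio 31.3, 95% counting interval 8.29 to 265). Its level in the double line was 1.12, 1.39 and 0.121 CPM, so replicate 3 stood far below the other libraries though still above WT. ZNF404, at 2 reads against 41 (ratio 22.1, interval 5.75 to 189), and ZNF550, at 2 against 36 (ratio 19.4, interval 5.00 to 167), were the other cases. ZNF541, ZNF404 and ZNF550 were picked after their values were seen, and the intervals cover counting error only. None of the 9 WT libraries held 10 reads of ZNF223, ZNF541, ZNF404, ZNF550 or ZNF772, so these members passed the count filter through degron libraries and had to differ between lines, and their values are given as a description. On day 2 ZNF223 and ZNF541 had no read in any WT library.

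**Figure D2:**
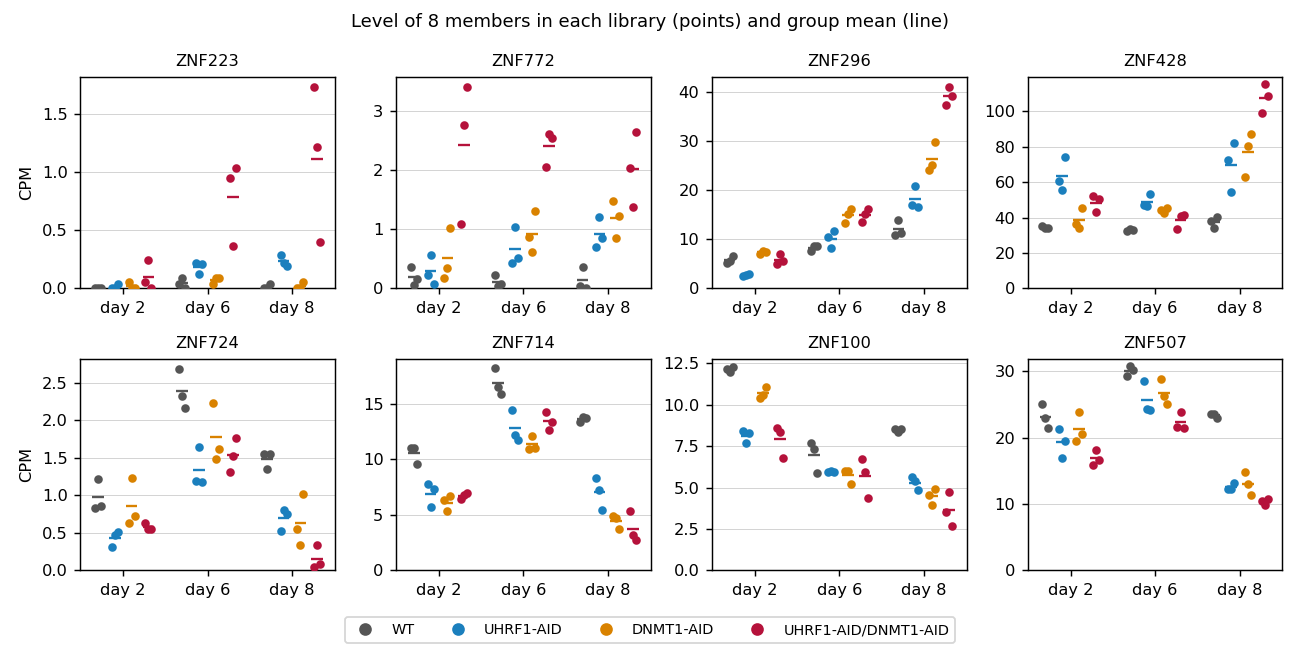
Points give the level in CPM of 8 members in each library, by day and line, with a line at each group mean. ZNF772 stays at 0 to 0.364 CPM in WT and reaches 1.09 to 3.41 CPM in the double line, whereas ZNF714 falls from 13.3 to 13.8 CPM in WT to 2.74 to 5.30 CPM in the double line on day 8.

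Abundant members without a KRAB-box-like stretch did not all go the same way in the double line on day 8 without the offsets. ZNF507 was lower, and ZNF575 and ZNF580 were not called. ZNF428, ZNF296, ZNF358, ZNF524 and ZNF787 were higher. With GC and length offsets only ZNF428 and ZNF296 among them stayed higher, and by less. ZNF428, with 1 finger pattern, stood at 38.2, 34.3 and 40.2 CPM in WT on day 8 and at 99.2, 115 and 109 CPM in the double line (log2 fold change 1.52 ± 0.13, SE, edgeR adjusted p = 2.65e-12). ZNF296 stood at 10.8, 13.8 and 11.3 CPM against 37.3, 41.1 and 39.2 CPM (log2 fold change 1.71 ± 0.13, SE, edgeR adjusted p = 1.47e-13). Neither pair of groups overlapped, and with GC and length offsets the changes were 0.47 for ZNF428 and 0.52 for ZNF296 and both kept their calls. ZNF358, ZNF524 and ZNF787, picked after their values were seen for their high level, had log2 fold changes of 1.06, 1.03 and 0.81, which became -0.10, -0.31 and -0.41 with the offsets. There ZNF524 and ZNF787 were called lower than WT (edgeR adjusted p = 0.00548 and 5.61e-05) and ZNF358 was not called (adjusted p = 0.339). The median of all genes was 0.03 without and -0.24 with the offsets, so relative to it ZNF358 went from 1.03 to 0.14, ZNF524 from 1.00 to -0.07 and ZNF787 from 0.78 to -0.17.

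The classes also changed places with the offsets. Without them 36 of 140 tested members with a KRAB-box-like stretch were higher and 23 lower, with a median of 0.12, and 15 of 27 without it were higher and 2 lower, with a median of 0.49. With GC and length offsets there were 50 higher and 19 lower and a median of 0.22 for the first class and 5 higher and 16 lower and a median of -0.27 for the second, beside a median of -0.24 over all genes. Relative to all genes the members as a whole stood at 0.14 without and at 0.38 with the offsets. Which of the settings is closer to the RNA in the cells was not tested.

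**Figure D3:**
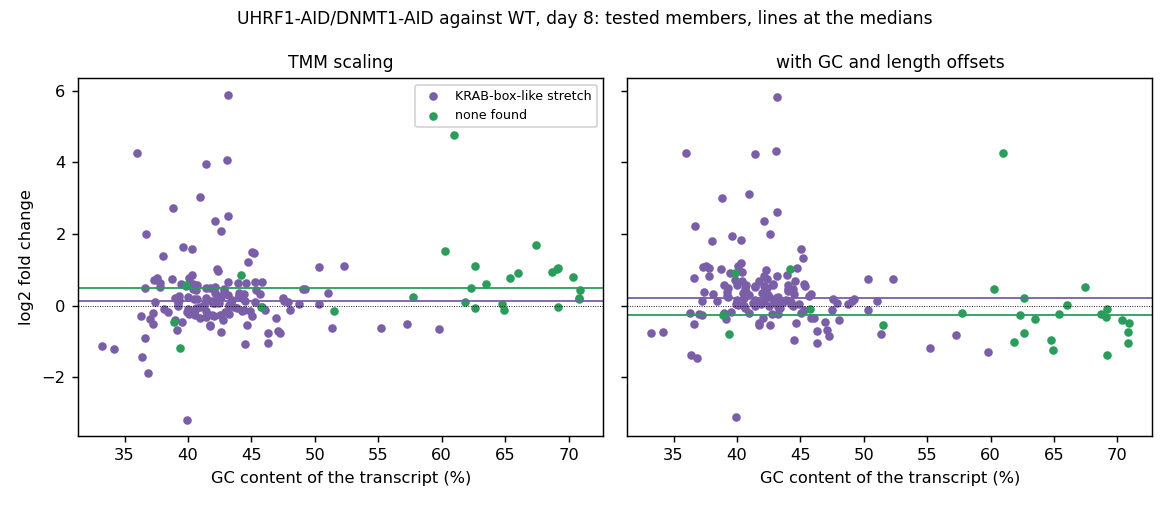
Log2 fold change (double line against WT, day 8) of the 167 tested members against the GC content of the transcript (percent), without and with GC and length offsets, with lines at the medians of members with and without a KRAB-box-like stretch. The medians are 0.12 and 0.49 without and 0.22 and -0.27 with the offsets.

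Of the named members with the largest falls without the offsets, ZNF724, ZNF714, ZNF85 and ZNF100 lay in the centromere-side array of the short arm. ZNF507 lay on the long arm. ZNF714 stood at 13.3, 13.8 and 13.7 CPM in WT on day 8 and at 5.30, 3.15 and 2.74 CPM in the double line. The groups were far apart, with a log2 fold change of -1.88 ± 0.17 (SE, edgeR adjusted p = 1.30e-11). ZNF100 fell from 8.56, 8.32 and 8.50 CPM to 3.52, 4.74 and 2.66 CPM (log2 fold change -1.22 ± 0.16, SE, edgeR adjusted p = 4.67e-08). ZNF507, the only member between the array of ZNF101 to ZNF254 and the next one on the long arm apart from ZNF536, fell from 23.6, 23.5 and 23.0 CPM to 10.4, 9.83 and 10.8 CPM (log2 fold change -1.18 ± 0.11, SE, edgeR adjusted p = 9.43e-12). No library of these groups overlapped for any of the 3 genes. With GC and length offsets all 3 calls held, at -1.46, -0.74 and -0.80, beside a median of -0.24 over all genes.

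ZNF724 had the largest fall, from 1.56, 1.35 and 1.55 CPM in WT to 0.0510, 0.336 and 0.0805 CPM in the double line (log2 fold change -3.17 ± 0.45, SE, edgeR adjusted p = 1.38e-07), but 42.8% of its 75-base stretches are shared with another gene and its count is uncertain. ZNF85 stood at 1.10, 0.900 and 1.38 CPM against 0.0510, 0.588 and 0.564 CPM (log2 fold change -1.44 ± 0.51, SE, edgeR adjusted p = 0.0138), a call that was lost without double line replicate 1 (-0.97) or without WT replicate 3 (-1.26). Among lowered members picked after their values were seen, ZNF45 fell by 1.03, ZNF551 fell by 1.06 and ZNF146 fell by 0.44 on the log2 scale. ZNF45 and ZNF551 lie outside the array of ZNF101 to ZNF254. Under the alternatives that kept all libraries of the groups they fell by at least 0.97 and 0.94, more than ZNF100 and ZNF507 with the offsets. ZNF146, a protein made almost entirely of fingers that is overexpressed in colorectal tumours, was the most abundant of these lowered members. It had means of 59.4 CPM in WT and 43.8 CPM in the double line and no overlap between the libraries. With GC and length offsets its log2 fold change was -0.27, close to the median of -0.24 over all genes.

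**Figure D4:**
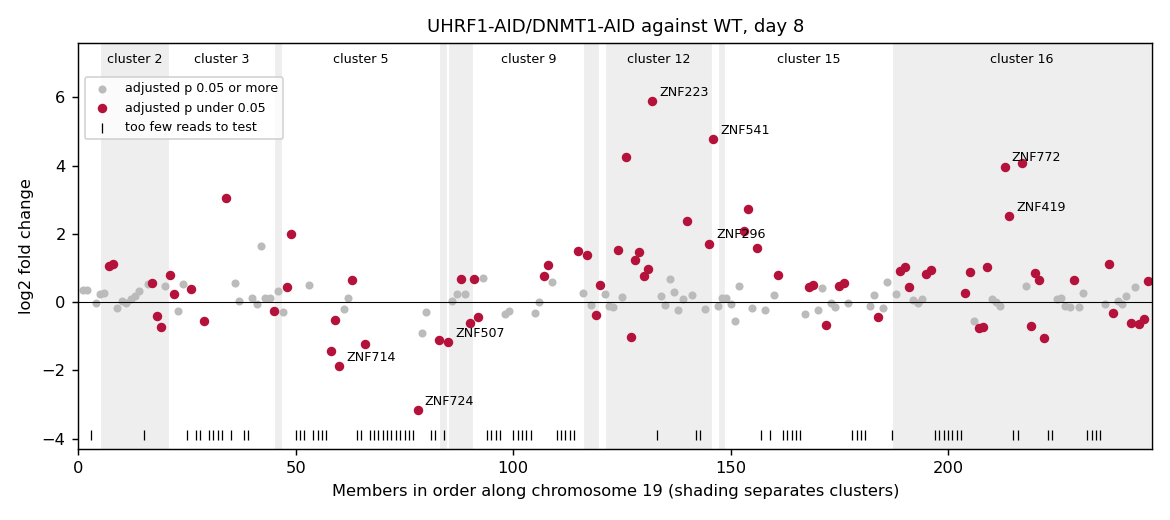
Log2 fold change of the double line against WT on day 8 for each tested member, placed by its rank along chromosome 19, with shading that separates the clusters; coloured points passed edgeR's test at an adjusted p under 0.05. The members of cluster ZNF101 to ZNF254, where ZNF724 and ZNF714 lie, hold the lowest points.

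Neighbouring members less than 1 Mb apart were joined into 16 clusters. The cluster from ZNF101 to ZNF254, at 19.7 to 24.1 Mb beside the centromere, held 37 members, of which only 15 (40.5%) were tested, with a median promoter CG count of 8 and a median level in WT on day 2 of 0.0180 CPM. In the double line on day 8 it had 3 tested members higher and 6 lower, with a median of -0.29, beside 35.7% and 32.8% of all genes, and in DNMT1-AID 7 of its 15 tested members were lower, with a median of -0.49, beside 22.4% of all genes. The cluster from ZNF575 to ZNF296 (24 members, 21 tested) went the other way in the double line, with 9 higher and 1 lower and a median of 0.29. The clusters from ZNF175 to ZNF331 and from ZNF628 to ZNF446 had 8 higher and 2 lower of 27 tested and 16 higher and 8 lower of 44. These counts were not tested against each other, since neighbours share sequence and are not independent. By promoter CG count there were 12 higher and 9 lower of 52 tested members with 5 to 14 CG, 21 and 11 of 76 with 15 to 24 CG, and 7 and 4 of 18 with 25 or more, beside the same 35.7% and 32.8% of all genes. The counts and medians by cluster and by promoter CG count are without GC and length offsets. Median GC content was 36.8% in the cluster from ZNF101 to ZNF254 and 42.7% in that from ZNF575 to ZNF296. The part of GC content in these counts was not tested.

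In the single lines the comparison with WT on day 8 asks how each line stood after the loss of its protein alone. In UHRF1-AID 25 members were higher and 15 lower, beside backgrounds of 24.2% and 21% over all genes, with a median of 0.17. In DNMT1-AID 21 were higher and 30 lower, beside backgrounds of 25.1% and 22.4%, with a median of -0.02. Under the offsets UHRF1-AID had 27 members higher (16.2%) and 34 lower (20.4%), beside 15.3% and 39.6% of all genes, and with library size alone DNMT1-AID had 14 (8.38%) and 45 (26.9%), beside 15.7% and 35.1%. Both lines were compared with the same WT libraries as the double line, so the values of a gene in the 3 comparisons are not independent and are given side by side.

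ZNF714 stood at 8.32, 7.26 and 5.43 CPM in UHRF1-AID on day 8 and at 4.92, 4.75 and 3.71 CPM in DNMT1-AID, all below the lowest WT library at 13.3 CPM. Its log2 fold changes were -0.96 ± 0.16 and -1.60 ± 0.17 (SE, edgeR adjusted p = 8.03e-06 and 2.19e-09). ZNF507 changed by -0.89 and -0.83 and ZNF100 by -0.68 and -0.92 in UHRF1-AID and DNMT1-AID, and all 4 values passed the test. ZNF724 changed by -1.09 and -1.26, the former not past the threshold without UHRF1-AID replicate 1 (-0.93). ZNF85 did not pass in either line, at -0.74 and -0.78 (edgeR adjusted p = 0.207 and 0.180).

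ZNF772 stood at 0.708, 1.21 and 0.846 CPM in UHRF1-AID and at 1.49, 0.856 and 1.22 CPM in DNMT1-AID on day 8, above each WT library. The log2 fold changes were 2.83 ± 0.73 and 3.21 ± 0.72 (SE), again as a description. ZNF419 changed by 1.90 and 1.39 and passed in both lines. ZNF134, a member without a KRAB-box-like stretch, stood at 11.3, 10.1 and 10.8 CPM in UHRF1-AID and at 15.6, 13.1 and 15.3 CPM in DNMT1-AID against 5.49, 6.34 and 7.49 CPM in WT. Its groups did not overlap with WT, and its log2 fold changes of 0.73 and 1.18 became 0.76 and 1.35 with GC and length offsets. ZNF350 was higher in DNMT1-AID, at 3.04, 0.856 and 2.54 CPM (log2 fold change 2.17 ± 0.53, SE, edgeR adjusted p = 0.000991), while UHRF1-AID overlapped with WT, at 0.637, 0.220 and 1.33 CPM (0.63 ± 0.56, adjusted p = 0.375). The replicate numbers of UHRF1-AID differed at ZNF350, as described at the end. Further members named by the same rule were ZNF211 (0.74) and ZNF875 (1.06) above WT and ZNF584 (-0.78) below it in UHRF1-AID, and in DNMT1-AID ZNF155 (1.24) above WT and ZNF44 (-1.13) and ZNF254 (-0.91) below it. The call of ZNF44 was lost without DNMT1-AID replicate 2 (-0.82), and that of ZNF254 without DNMT1-AID replicate 1 or 2 or WT replicate 3 (-0.79, -0.87 and -0.61) and with GC and length offsets (-0.71).

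Direct comparison of the lines on day 8 tested where they differ. Between UHRF1-AID and DNMT1-AID 20 members were higher in UHRF1-AID and 6 lower, beside backgrounds of 10% and 8.24%, and the first count went to 10 without DNMT1-AID replicate 2 and to 12 without UHRF1-AID replicate 2, the second to 2 without DNMT1-AID replicate 3. The offsets gave a split of 16 and 11 (backgrounds 6.89% and 17.6%), and with library size alone 30 and 3 (16.9% and 4.01%). ZNF554 was higher in UHRF1-AID, with means of 4.76 and 2.34 CPM (log2 fold change 1.00 ± 0.22, SE, edgeR adjusted p = 0.00153), and ZNF296 was lower, with means of 18.1 and 26.3 CPM (-0.54 ± 0.13, adjusted p = 0.00266). Against UHRF1-AID the double line had 21 members higher and 16 lower (backgrounds 20.4% and 23.5%), and against DNMT1-AID 40 higher and 9 lower (backgrounds 22.2% and 24%). With library size alone the former split was 17 and 25 (14.7% and 32%), and with the offsets the latter was 33 and 21 (14.7% and 39.5%). ZNF304, a KRAB zinc finger protein, stood at 6.12, 6.93 and 5.44 CPM in the double line, below all libraries of UHRF1-AID (8.55 to 11.2 CPM) and of DNMT1-AID (7.94 to 8.77 CPM). Its log2 fold changes against these lines were -0.70 ± 0.13 and -0.44 ± 0.13 (SE, edgeR adjusted p = 5.16e-05 and 0.00617). ZNF530 was likewise lower in the double line, at 1.07, 1.85 and 0.966 CPM, with changes of -0.90 against UHRF1-AID and -1.09 against DNMT1-AID.

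For ZNF223 the double line exceeded each single line, by 2.22 ± 0.59 against UHRF1-AID and with 73 reads to 1 against DNMT1-AID (ratio 81.2, 95% counting interval 14.1 to 3251). ZNF714 was lower in the double line than in UHRF1-AID (log2 fold change -0.92 ± 0.17, SE, edgeR adjusted p = 6.50e-05), but its difference from DNMT1-AID, -0.29 ± 0.18, did not pass (adjusted p = 0.197). ZNF772 passed in neither, at 1.14 ± 0.51 against UHRF1-AID and 0.76 ± 0.51 against DNMT1-AID (edgeR adjusted p = 0.0707 and 0.228), and the first of these passed with GC and length offsets, at 1.33.

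On day 2 few members differed in DNMT1-AID, where 1 was higher and 1 lower, beside backgrounds of 2.67% and 0.714%. These were ZNF134, with a log2 fold change of 0.85, and ZNF714, with -0.79. UHRF1-AID had 10 higher and 16 lower (backgrounds 12.1% and 14.4%) and the double line 18 and 9 (16.3% and 11.5%). The 10 went to 6 without UHRF1-AID replicate 2, to 5 without WT replicate 1 and to 4 without WT replicate 2 or 3. In the double line the 9 went to 4 without its replicate 1 or 3 and to 5 without WT replicate 1, and the 18 went to 11 without WT replicate 1. Its split was 11 and 17 with library size alone (backgrounds 10.7% and 22.7%) and 17 and 18 with GC and length offsets (10.7% and 29%), and in DNMT1-AID 2 members were lower without its replicate 2 and 4 with library size alone (3.44%). ZNF714 was already lower in each of the 3 lines, at 7.72, 5.66 and 7.31 CPM in UHRF1-AID, 6.32, 5.33 and 6.65 CPM in DNMT1-AID and 6.43, 6.77 and 6.95 CPM in the double line against 11.0, 11.0 and 9.56 CPM in WT. ZNF772 was already higher in the double line, at 1.09, 2.77 and 3.41 CPM against 0.364, 0.0555 and 0.162 CPM in WT (log2 fold change 3.58 ± 0.68, SE, as a description). There ZNF419 changed by 1.97, ZNF599 by 1.31, ZNF222 by 1.10 and ZNF177 by 1.04, of which ZNF419 was lost without double line replicate 2 (1.36), ZNF222 without double line replicate 3 or WT replicate 1 (0.92 and 0.77) and ZNF177 without the same libraries (0.57 and 0.89). ZNF177 shares 85.0% of its 75-base stretches, mostly with the read-through gene ZNF559-ZNF177.

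UHRF1-AID on day 2 had 9 of 27 members without a KRAB-box-like stretch lower, and 7 of 140 with it, beside the background of 14.4%. Of the other genes of chromosome 19, 231 of 1007 were lower. With GC and length offsets 9, 8 and 303 were lower in the same order, beside 21.9% of all genes. ZNF865 stood at 1.45, 1.80 and 5.20 CPM in UHRF1-AID against 12.6, 10.4 and 11.1 CPM in WT (log2 fold change -1.98 ± 0.24, SE, edgeR adjusted p = 3.37e-07). ZNF628 stood at 1.73, 1.20 and 3.73 CPM against 9.83, 8.10 and 6.97 CPM (log2 fold change -1.88 ± 0.26, SE, edgeR adjusted p = 1.26e-06). In both genes replicate 3 was the highest of the UHRF1-AID libraries, and both calls held with GC and length offsets, at -1.78 and -1.70. ZNF579 (-1.32) and ZNF296 (-1.06) were also lower, whereas ZNF428 was higher, at 60.5, 55.7 and 74.1 CPM against 35.5, 34.2 and 34.1 CPM (log2 fold change 0.88 ± 0.13, SE, edgeR adjusted p = 3.05e-06). On day 8 ZNF865 and ZNF628 stood at 0.06 and -0.17 and did not pass. With the offsets they were lower, at -0.42 and -0.67, beside a median of -0.17 over all genes. The change of their difference from WT between day 2 and day 8 was itself past the threshold, at 2.04 ± 0.30 and 1.71 ± 0.32 (SE, edgeR adjusted p = 1.66e-05 and 0.000309), and was 1.36 and 1.02 with the offsets, both still past it.

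On day 6 the single lines had few calls among the members, 3 higher and 3 lower in UHRF1-AID (backgrounds 14.3% and 10.5%) and 6 and 7 in DNMT1-AID (8.84% and 4.35%), while the double line had 18 and 8 (19% and 21.9%). With GC and length offsets UHRF1-AID had 2 higher (1.2%) and 23 lower (13.8%), beside 10.1% and 29.5% of all genes, and the double line 17 (10.2%) and 28 (16.8%), beside 13.3% and 45.8%. By DESeq2 the double line had 29 and 5, beside 21.6% and 18.1%. In DNMT1-AID the 6 went to 3 without its replicate 1 or 3 or WT replicate 2, and the 7 went to 3 without its replicate 2, to 4 without its replicate 3 or WT replicate 3 and to 2 without WT replicate 1. In the double line the 8 went to 3 without its replicate 2, to 5 without WT replicate 1 and to 4 without WT replicate 2. In UHRF1-AID the 3 higher members were ZNF541, ZNF772 (2.48) and ZNF428 (0.58) and the 3 lower ones ZNF114 (-1.14), ZNF551 (-0.46) and ZNF562 (-0.37), each value a log2 fold change. ZNF541 had 75 reads there against 1 in WT (ratio 63.4, 95% counting interval 11.0 to 2536). The call of ZNF428 was lost with the offsets (0.23), that of ZNF562 without WT replicate 3 (-0.33), and that of ZNF551 without UHRF1-AID replicate 1 or 2 or any WT replicate (-0.40 to -0.48). ZNF541 had 1 read in WT and 97 in the double line on day 6 (ratio 87.4, 95% counting interval 15.3 to 3486), where it stood at 1.11, 0.914 and 1.43 CPM. ZNF772 stood at 2.06, 2.62 and 2.55 CPM in the double line against 0.230, 0.0439 and 0.0687 CPM in WT (log2 fold change 4.32 ± 0.68, SE, as a description).

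The change of the difference from WT between day 2 and day 8 was called for 14 members upward and 3 downward in UHRF1-AID (backgrounds 10.7% and 7.09%), for 8 and 6 in DNMT1-AID (7.05% and 9.28%) and for 18 and 14 in the double line (16.1% and 22.6%). For the double line ZNF296 changed by 1.70 ± 0.20, ZNF714 by -1.23 ± 0.24 and ZNF724 by -2.44 ± 0.62 (SE, edgeR adjusted p = 4.40e-08, 0.000106 and 0.00205), and with GC and length offsets the change of ZNF296 was 0.94 and still passed. ZNF772 was higher in that line on each day, and its change, 0.39 ± 1.06, did not pass by edgeR (adjusted p = 0.825). In DNMT1-AID the 8 went to 4 without its day 2 replicate 1 or its day 8 replicate 3 and to 5 without WT day 2 replicate 3 or WT day 8 replicate 1 or 3, and the 6 went to 3 without its day 8 replicate 2. In the double line the 18 went to 11 without its day 8 replicate 2. With the offsets the splits were 8 and 7 in UHRF1-AID (backgrounds 6.35% and 16.5%) and 4 and 5 in DNMT1-AID (2.91% and 8.97%), and with library size alone 5 and 9 in DNMT1-AID (5.24% and 11.8%).

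WT cells themselves changed over the days of Dox/Auxin, with day and treatment time being the same thing in this design. Between day 2 and day 6 a rise was called for 74 members and a fall for 12 (backgrounds 35.7% and 32.1%), with a median of 0.50 against 0.07 over all genes, and with GC and length offsets for 54 and 18 (23% and 37%). Between day 2 and day 8 a rise was called for 46 members and a fall for 16 (30.1% and 29.7%), with medians of 0.13 and 0.00, and with library size alone for 65 and 7 (37.2% and 20.7%). ZNF587, a primate KRAB protein that silences retroelements, rose from 4.01, 4.55 and 3.56 CPM on day 2 to 19.9, 18.6 and 18.8 CPM on day 6 (log2 fold change 2.24 ± 0.19, SE, edgeR adjusted p = 9.91e-13). It then stood at 9.38, 10.5 and 9.41 CPM on day 8. ZNF8 rose by 2.26 and ZNF132 by 2.18 to day 6, and ZNF865 rose by 2.03, ZNF414 by 1.66 and ZNF628 by 1.59 to day 8. The rises of ZNF8, ZNF865 and ZNF628 were 1.16, 0.87 and 0.47 with GC and length offsets and still passed. ZNF90 fell on both days, from 1.20, 1.55 and 2.65 CPM to 0.460, 0.482 and 0.172 CPM and to 0.458, 0.180 and 0.607 CPM (log2 fold changes -2.29 and -2.06). Of the 167 tested members 57 (34.1%) were called in none of the 9 comparisons with WT of the same day, beside 13.7% of all genes tested.

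Members with known roles were looked at as lists. Of 5 binders of young retroelements 4 were tested, and ZNF93, which binds L1 elements, had 1 read in all libraries. On day 8 none of the 4 passed in UHRF1-AID by edgeR, with 0 at an unadjusted p under 0.05 and 0 by DESeq2. ZNF611 (-0.55) and ZNF765 (-0.37) were lower in DNMT1-AID, and ZNF765 (-0.45) was lower in the double line. All 3 calls were lost with GC and length offsets. In DNMT1-AID that of ZNF765 was also lost without its replicate 1 or 3 or WT replicate 2 (-0.34, -0.27 and -0.25) and that of ZNF611 without its replicate 1 or 3 or WT replicate 1 or 3 (-0.61 to -0.33), and in the double line that of ZNF765 without its replicate 3 or WT replicate 2 (-0.34 for each). ZNF765 stood at 7.92, 10.1 and 8.23 CPM in WT on day 8, at 6.59, 7.92 and 5.80 CPM in DNMT1-AID and at 7.19, 6.59 and 5.48 CPM in the double line. Of 8 members known for promoter methylation in cancers only ZNF132 and ZNF177 were tested, and neither passed on day 8 in any line by edgeR, at an unadjusted p under 0.05 or by DESeq2 (0 in each). On day 2 ZNF177 was higher in UHRF1-AID (0.79, edgeR adjusted p = 0.0395) and in the double line (1.04), with the limits given above for its count. ZNF331, ZNF382, ZNF582, ZNF671 and ZNF677 had 0 to 18 reads over all 36 libraries and ZNF154 had 78, with a highest library value of 0.302 CPM.

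ZNF274, which binds the 3′ ends of zinc finger genes and recruits SETDB1 there, stood at 4.81, 4.14 and 4.42 CPM in WT on day 8, at 6.73, 8.00 and 6.77 CPM in UHRF1-AID, at 6.32, 6.29 and 7.23 CPM in DNMT1-AID and at 10.9, 10.1 and 8.13 CPM in the double line. All degron libraries were above all WT libraries, and the log2 fold changes were 0.68 ± 0.15, 0.57 ± 0.16 and 1.12 ± 0.15 (SE, edgeR adjusted p = 0.000474, 0.00318 and 9.06e-08). With GC and length offsets they were 0.42, 0.39 and 0.75 and still passed. The double line also differed from UHRF1-AID by 0.44, a call lost with the offsets (0.32), and from DNMT1-AID by 0.56. On day 2 ZNF274 passed in no line, and the change of its difference from WT to day 8 was 1.14 in the double line.

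Of 22 cofactors and heterochromatin partners of KRAB proteins, none of them a member, 3 were higher and 14 lower in the double line on day 8, beside backgrounds of 35.7% and 32.8%. In UHRF1-AID 1 was higher and 9 lower (24.2% and 21%), and in DNMT1-AID 2 and 9 (25.1% and 22.4%). TRIM28, the common corepressor, did not pass in the double line (0.06 ± 0.09, SE, edgeR adjusted p = 0.607), nor did SETDB1 (-0.21 ± 0.10, adjusted p = 0.0518). CBX5, which encodes HP1α, changed by -1.49 and SUV39H1, an H3K9 methyltransferase, by -1.60. In WT the same list had 13 genes higher and 5 lower on day 6 than on day 2 (35.7% and 32.1%).

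Within a line, libraries with the same replicate number resembled each other over the days in the single degron lines, and a test of the replicate number over the 3 days called 11 members in UHRF1-AID and 3 in DNMT1-AID, beside backgrounds of 16.4% and 2.94% of all genes tested. In UHRF1-AID replicate 3, ZNF91, which represses SVA retroelements, stood at 0, 0.0303 and 0 CPM on days 2, 6 and 8, against 0.770 to 1.84 CPM in replicates 1 and 2 and 1.17 to 2.24 CPM in WT. ZNF675, the next member along the chromosome at a distance of 130 kb, stood at 0.0397, 0.0606 and 0 CPM in the same libraries, against 1.73 to 4.33 CPM in replicates 1 and 2. The adjusted p over the 3 days was 3.34e-06 for ZNF91 and 1.91e-11 for ZNF675 (edgeR's quasi-likelihood F test). The nearest other tested members, ZNF724 and ZNF254, were not called (edgeR adjusted p = 0.609 and 0.945), and the members between were not tested. Also among the 11, UHRF1-AID replicate 2 differed from replicate 1 by -1.58 at ZNF350, 1.62 at ZNF607 and 0.78 at ZNF266. These are log2 values over the 3 days (edgeR adjusted p over all 3 replicate numbers = 0.00854, 0.00125 and 0.000306). In DNMT1-AID replicate 2, ZNF136 stood at 0.586, 1.00 and 1.07 CPM and ZNF44, 34.8 kb away, at 0.469, 0.612 and 0.471 CPM, both below the other replicates of that line on each day. The third member called in DNMT1-AID was ZNF91, again lowest in replicate 2. In WT and in the double line the test called no member by edgeR, beside backgrounds of 0% and 1.75%. At an unadjusted p under 0.05 there were 7 and 24 members of 167, beside 163 and 2321 of all 15415 genes tested. No other tool was run on this question.

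**Figure D5:**
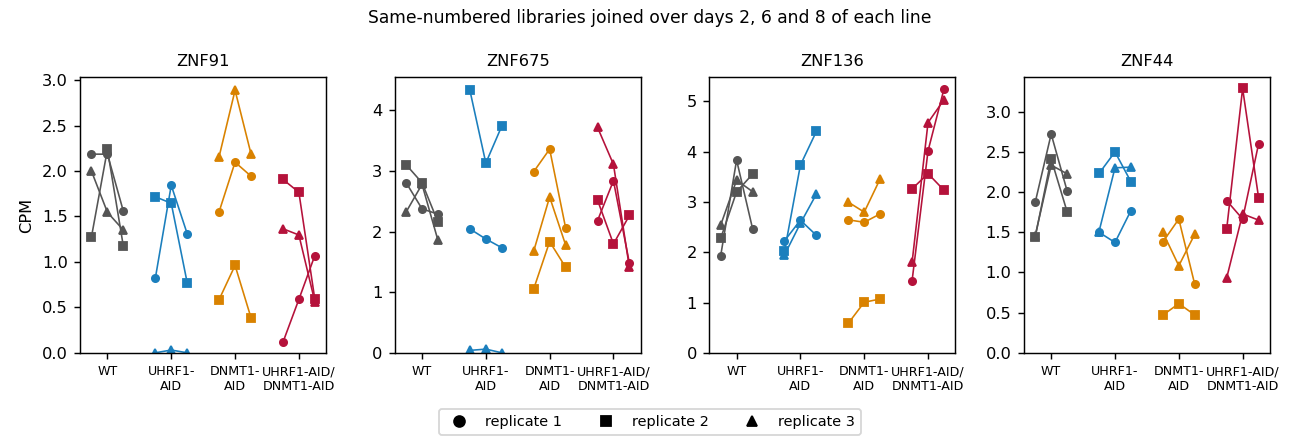
Level in CPM of ZNF91, ZNF675, ZNF136 and ZNF44 in each library, by line, with libraries of the same replicate number joined over days 2, 6 and 8. UHRF1-AID replicate 3 lies at or near 0 for ZNF91 and ZNF675 on each day, and DNMT1-AID replicate 2 lies lowest in its line for ZNF136 and ZNF44.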

How the data were processed

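RNA was measured in 36 libraries of polyadenylated RNA (3 per line and day). Alignment by the authors used STAR and GRCh38, featureCounts assigned the reads to genes, and the deposited values are these counts, not normalized. The annotation release and the settings for strand and multimapping reads are not given in the sources used here. Each file held 60648 genes, of which 60462 matched GENCODE release 44, and total counts ran from 21074536 to 37175136 (median 25031562.5). Samples were grouped by the line and day in the labels. The rule for the members used no measured value, but this gene family and the lists were chosen with earlier results of these data known.

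Protein-coding genes passing filterByExpr (minimum count 10) were fitted together over all 36 libraries with edgeR 4.0.16 in R 4.3.3 (TMM scaling, 12 group means, robust quasi-likelihood test), with Benjamini-Hochberg adjustment over 15415 genes and a threshold of 0.05 at any fold. The test was checked on simulated data. CPM are counts per TMM-adjusted library size. Named genes were up to 5 called members in each direction for each comparison with WT and up to 3 for the others, with a mean of at least 1 CPM in a group and, except for changes between days, no overlap between libraries, together with the 5 most abundant members per kb, the lists and the targeted genes. Exceptions are named as such. Alternatives were other scalings, other count filters, DESeq2 1.42.0, the libraries of a comparison alone, GC and length offsets (mgcv 1.9.3), a replicate block and leaving out each library. The block within a line and the test of replicate numbers were added after seeing the data. Within a line, same-numbered libraries deviated together in UHRF1-AID (correlations of 0.186 to 0.383) and DNMT1-AID (0.119 to 0.287) but not in WT (-0.05 to 0.03), and in the double line they ran from -0.071 to 0.309. KRAB-box-like stretches and fingers were read from translated GENCODE coding sequences, promoters from RefSeq (GRCh38.p14), and clusters were split at gaps over 1 Mb.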

Additional observations from a re-analysis of the deposited data

Results flagged for a closer look

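The values here are log2 differences that passed edgeR's test of the difference itself, either between degron lines on day 8 or between day 2 and day 8 in the distance of a line from WT. They were named by the same rule as the other genes.

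Between UHRF1-AID and DNMT1-AID, ZNF114 (-0.92), ZNF296 (-0.54) and ZNF134 (-0.45) were lower in UHRF1-AID, and ZNF566 (1.29), ZNF44 (1.18) and ZNF554 (1.00) were higher. ZNF134 was lost without DNMT1-AID replicate 1 or 3 (-0.40 and -0.42), ZNF566 without DNMT1-AID replicate 1 or 2 or UHRF1-AID replicate 2 (0.96 to 1.305), ZNF44 without DNMT1-AID replicate 1 or 2 or UHRF1-AID replicate 3 (0.87 to 1.11), and ZNF114 without DNMT1-AID replicate 2 or 3 or any UHRF1-AID replicate (-0.98 to -0.72).

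The double line was lower than UHRF1-AID for ZNF714 (-0.92), ZNF530 (-0.90) and ZNF304 (-0.70) and higher for ZNF223 (2.22), ZNF350 (1.47) and ZNF296 (1.11, or 0.57 with GC and length offsets). ZNF350 was lost without UHRF1-AID replicate 1 or 2 or double line replicate 3 (1.05 to 1.37). The double line was lower than DNMT1-AID for ZNF530 (-1.09), ZNF551 (-0.77) and ZNF304 (-0.44) and higher for ZNF223 (5.90, a fitted value resting on 1 read in DNMT1-AID and no bound), ZNF607 (1.49) and ZNF44 (1.16). ZNF44 was lost without DNMT1-AID replicate 2 (0.85) or double line replicate 1 (0.96).

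Between day 2 and day 8 the difference of UHRF1-AID from WT moved down for ZNF584 (-0.65), ZNF507 (-0.63) and ZNF45 (-0.53) and up for ZNF865 (2.04), ZNF579 (1.75) and ZNF628 (1.71). In DNMT1-AID it moved down for ZNF714 (-0.81), ZNF100 (-0.74) and ZNF699 (-0.72) and up for ZNF155 (1.73), ZNF428 (0.87) and ZNF296 (0.78). In the double line it moved down for ZNF724 (-2.44), ZNF714 (-1.23) and ZNF254 (-1.14) and up for ZNF296 (1.70), ZNF155 (1.61) and ZNF875 (1.22). Several of these calls were lost without single libraries. In UHRF1-AID this held for ZNF584 without its day 2 replicate 1, its day 8 replicate 2 or 3, or replicate 1 or 3 of WT on day 2 or day 8 (-0.67 to -0.52), and for ZNF45 without WT day 2 replicate 3 or WT day 8 replicate 2 (-0.46 and -0.48). In DNMT1-AID it held for ZNF100 without its day 8 replicate 2 (-0.65), for ZNF714 without its day 8 replicate 3 or WT day 2 replicate 3 (-0.69 and -0.73), for ZNF699 without its day 8 replicate 2 or 3, WT day 2 replicate 1 or 2 or WT day 8 replicate 1 or 3 (-0.68 to -0.61), and for ZNF155 without its day 2 replicate 1, its day 8 replicate 3, WT day 2 replicate 3 or WT day 8 replicate 2 (1.21 to 1.65). The double line lost ZNF155 without WT day 2 replicate 3 (1.09), ZNF254 without its day 2 replicate 3, its day 8 replicate 1 or 2, WT day 2 replicate 2 or 3 or WT day 8 replicate 3 (-1.16 to -0.81), and ZNF875 without its day 2 replicate 3, its day 8 replicate 1 or 2 or any WT replicate of either day (0.97 to 1.27). With GC and length offsets the DNMT1-AID calls of ZNF714 (-0.51), ZNF100 (-0.43), ZNF699, ZNF428 (0.41) and ZNF296 (0.28) and the double line calls of ZNF254 (-0.69) and ZNF875 were lost, while ZNF865 (1.36) and ZNF628 (1.02) in UHRF1-AID and ZNF296 (0.94) in the double line kept their calls at smaller values.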

How the results depend on the processing

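In the double line on day 8 the counts of 51 higher and 25 lower members ran from 42 to 52 and from 20 to 25 when a library was left out. GC and length offsets turned the sign of ZNF358 (-0.10), ZNF524 (-0.31) and ZNF787 (-0.41) there, beside a median of all genes of -0.24, above which ZNF358 stayed. With library size alone the members moved with all genes. Over the 17 comparisons the median of all genes moved by -0.187 to 0.29 and the members' median relative to it by -0.0138 to 0.00827. With the offsets all genes moved by -0.273 to -0.0351 and the members relative to them by -0.0698 to 0.238, upward in 14 of 17. The cause of the other moves below was not tested. Low counts limit members under 1 CPM, where few reads decide a value.

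With the offsets the members' median was -0.11 in UHRF1-AID and -0.080 in the double line on day 2, -0.054 and -0.024 on day 6, and 0.12 in UHRF1-AID on day 8. In the same order the medians of all genes were -0.055 and -0.13, -0.14 and -0.24, and -0.17. The members' median was 0.040 between UHRF1-AID and DNMT1-AID, 0.085 and 0.14 for the double line against UHRF1-AID and DNMT1-AID, 0.043 and 0.15 for the changes in DNMT1-AID and the double line, and 0.27 for WT day 6. Lower members numbered 18 in the double line on day 2, 23 in UHRF1-AID and 28 in the double line on day 6, 34 in UHRF1-AID on day 8, 11 between UHRF1-AID and DNMT1-AID and 21 for the double line against DNMT1-AID. The changes had 8 up and 7 down in UHRF1-AID and 4 up in DNMT1-AID.

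With library size alone the members' median was -0.13 in DNMT1-AID and -0.11 in the double line on day 2, -0.095 in DNMT1-AID on day 6, and 0.096, -0.19 and -0.0081 in UHRF1-AID, DNMT1-AID and the double line on day 8. In the same order the medians of all genes were -0.086 and -0.11, -0.048, and -0.038, -0.15 and -0.15. The members' median was 0.27 between UHRF1-AID and DNMT1-AID, -0.088 for the double line against UHRF1-AID, 0.066, -0.065 and 0.038 for the 3 changes, and 0.78 and 0.31 for WT days 6 and 8. Counts were 4 lower in DNMT1-AID and 11 higher and 17 lower in the double line on day 2, 5 lower in the double line on day 6 (background 17%), 3 lower between UHRF1-AID and DNMT1-AID, 25 lower for the double line against UHRF1-AID, 5 up for the change in DNMT1-AID, and 7 lower in WT on each day (21.5% and 20.7%).

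Shares over all genes were not computed for the libraries of a comparison alone, median-of-ratios factors, other count filters, the replicate block or fits without 1 library. Counts under those settings, here and above, therefore do not set the members against other genes. With the libraries of the comparison alone, 2 were higher in UHRF1-AID on day 2. On day 6, 5 were higher and 5 lower in UHRF1-AID, 11 lower in DNMT1-AID and 36 higher in the double line (median 0.13). On day 8, 3 were higher and 1 lower in UHRF1-AID against DNMT1-AID, and 5 and 3 lower in the double line against UHRF1-AID and DNMT1-AID. The change in the double line had 9 down. DESeq2 called 2 lower in DNMT1-AID on day 2 (background 1.38%). On day 6 it called 6 lower in UHRF1-AID (11.2%) and 29 higher and 5 lower in the double line (21.6% and 18.1%). Its medians were 0.21 and 0.14 for the changes in UHRF1-AID and the double line. Median-of-ratios size factors gave 2 lower in DNMT1-AID on day 2, 4 lower (24 higher) in the double line on day 6, and a median of 0.23 in the double line on day 8. A filter of 1 CPM gave 5 lower in UHRF1-AID on day 6. Without a filter the median was 0.12 in UHRF1-AID on day 8, 0.084 between UHRF1-AID and DNMT1-AID, and 0.40 and 0 in WT on days 6 and 8.

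The replicate block gave 2 lower members in DNMT1-AID on day 2 and 5 lower in UHRF1-AID on day 6 and changed no other call that the text names. Between lines same-numbered libraries correlated at -0.064 to 0.091 and so share only a number.

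Leaving out 1 library, counts ran from 4 to 9 higher in UHRF1-AID on day 2, 1 to 2 lower in DNMT1-AID and 11 to 17 higher and 4 to 9 lower in the double line. On day 6 they ran from 3 to 6 higher and 2 to 5 lower in DNMT1-AID and 3 to 7 lower in the double line. They were 10 to 17 higher and 2 to 6 lower between UHRF1-AID and DNMT1-AID, 4 to 8 up and 3 to 8 down for the change in DNMT1-AID and 11 to 19 up for that in the double line. Medians ran from -0.051 to 0.047 in DNMT1-AID on day 2, 0.027 to 0.079 in the double line on day 6, and 0.11 to 0.21, -0.067 to 0.059 and 0.10 to 0.21 in UHRF1-AID, DNMT1-AID and the double line on day 8. They ran from 0.091 to 0.18 between UHRF1-AID and DNMT1-AID, -0.019 to 0.086 and 0.12 to 0.26 for the double line against UHRF1-AID and DNMT1-AID, -0.067 to 0.047 for the change in DNMT1-AID and 0.42 to 0.51 for WT day 6.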
